A study of Mus musculus with 6 samples.

Results

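The genes described here encode the ionotropic and metabotropic receptors for GABA, glutamate, glycine and acetylcholine. Members were chosen with earlier results of these data known. They were defined by gene symbol, as every probe set named with exactly 1 symbol of the Gabr, Gabbr, Gria, Grin, Grik, Grm, Glra, Glrb, Chrn or Chrm series. This gave 119 probe sets of 60 genes, out of 34945 probe sets of 18193 genes that carried 1 symbol. RNA came from C57BL/6 mouse embryos at embryonic day 10.5, without a genotype or treatment named in the labels. The midbrain floor plate, the ventral midline strip, was compared with the ventral lateral region dissected beside it without overlap. Each region had 3 arrays, and each array held RNA from a pool of 6 embryos of mixed sex.

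Fast inhibition in the nervous system runs through pentameric chloride channels, the GABA-A and glycine receptors. Nicotinic receptors have the same pentameric build but pass cations. Fast excitation by glutamate runs through tetrameric AMPA, kainate and NMDA receptors, and the metabotropic glutamate, GABA-B and muscarinic receptors signal through G proteins. In the embryonic neural tube many of these genes come on as neurons are born, before most synapses form, and GABA and glycine can then depolarise young cells.

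Every value used here is the distance of an array from the probe set's median over 6 arrays, read as log2 and as rising with the amount of RNA. A value therefore says how the arrays differ and holds no level of expression, so a probe set without a difference may read a gene that is off in both regions or on in both. Where the regions do not overlap, this centring also makes the floor plate value and the ventral lateral value nearest to each other equal in size and opposite in sign. Of a floor plate list, 14 of 17 probe sets were higher in floor plate (82.4% against 3.47% of all) and none lower. Of a ventral lateral progenitor list, 6 of 9 were lower (66.7% against 2.57% of all) and none higher. Both lists were chosen with earlier results of these data known, so they give no independent check of the labels. Differences below are floor plate minus ventral lateral, from limma with Benjamini-Hochberg adjustment over all 34945 probe sets, and a call is an adjusted p under 0.05. The labels do not say whether pools of the 2 regions shared embryos, and the fit used no pairing. The p-values set the difference between regions against the spread of the 3 pools within each region. In limma this spread is drawn towards that of all probe sets. In such tissue, fewer cells of a type and less RNA per cell cannot be told apart.

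Receptor probe sets past the threshold were more often lower than higher in the floor plate. Over all 119, with or without a call, 60 differences were below 0 and 59 above. The AMPA subunit Gria1, the metabotropic glutamate receptors Grm4 and Grm3, the kainate subunit Grik3, the GABA-A subunit Gabrb2, the glycine subunit Glra2 and the nicotinic subunits Chrna4 and Chrna5 were lower, by 1.79-fold (Chrna4) to 4.32-fold (Grm4) on called probe sets. The nicotinic subunits Chrnb4 and Chrna3 and the NMDA subunit Grin2d were higher, by 1.59-fold to 3.0-fold on called probe sets. Of these genes, Grik3 and Grin2d were called on 1 of 2 probe sets, Chrna3 on 1 of 3, Chrna4 on 2 of 3 and Gabrb2 on 4 of 5. The other Grik3 probe set was of opposite sign, and Gabbr1 had calls in both directions. Of the 119 receptor probe sets 19 were lower, which is 16% against 2.57% of all probe sets tested. Another 5 were higher, which is 4.20% against 3.47% of all, so the share of higher calls was near the background. Calls in either direction came to 20.2% of receptor probe sets and 6.04% of all. The median difference was -0.0094 for the receptors and -0.0021 for all probe sets tested, and 95 members had no call. At an unadjusted p under 0.05, 35 receptor probe sets passed, or 29.4% against 18.3% of all. Groups did not overlap for 34 receptor probe sets, or 28.6% against 24.3% of all. These 34 split into 10 with floor plate higher (8.40% against 12.6% of all) and 24 with floor plate lower (20.2% against 11.7%), and all 24 calls were among them. The count of lower members differed with the array left out. With floor plate replicate 1 left out it was 11, with floor plate replicate 3 left out 12, with ventral lateral replicate 1 left out 10 and with ventral lateral replicate 3 left out 11. The lower share of all probe sets was then 1.57%, 1.53%, 1.62% and 1.75%. The receptor count was 16 with floor plate replicate 2 and 14 with ventral lateral replicate 2 left out, against 2.02% and 1.75% of all probe sets. Higher members fell to 3 when floor plate replicate 3 was dropped. Of the 24 calls 11 held whichever array was left out.

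**Figure D1:**
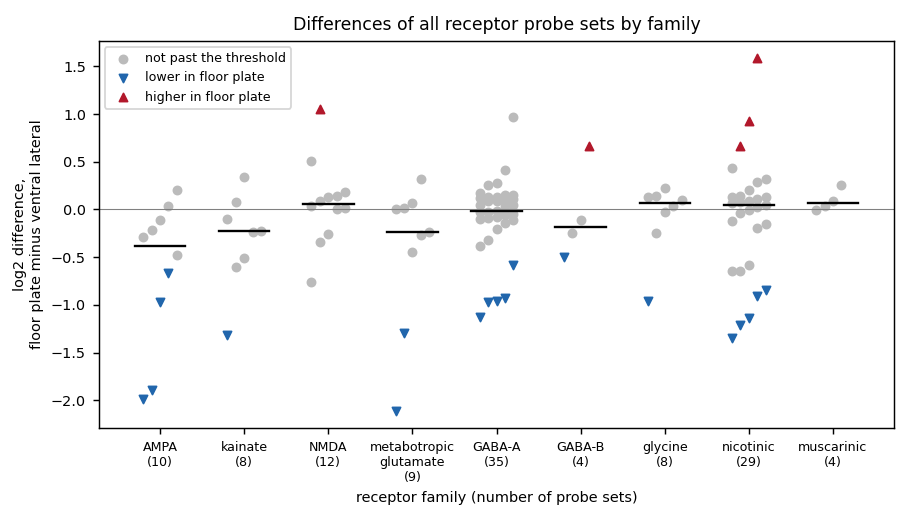
Difference between floor plate and ventral lateral samples (log2, vertical axis) for all 119 receptor probe sets, in columns by receptor family with the number of probe sets in parentheses. Each symbol is 1 probe set, triangles mark adjusted p under 0.05 and black bars mark family medians. The 19 lower probe sets spread over 7 families, while 3 of the 5 higher ones are nicotinic.

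By transmitter, the glutamate receptors had 7 lower and 1 higher of 39 probe sets (17.9% and 2.56%), with a median difference of -0.22. GABA receptors had 6 lower and 1 higher of 39 (15.4% and 2.56%), with a median of -0.02. Acetylcholine receptors had 5 lower and 3 higher of 33 (15.2% and 9.09%), with a median of 0.04. Glycine receptors had 1 lower and none higher of 8 (12.5%), with a median of 0.07. The lower shares of the 4 classes lay between 12.5% and 17.9% against 2.57% of all. Their higher shares lay between 0% and 9.09% against 3.47% of all. No difference between classes was tested. Called genes numbered 16, and only some of the probe sets of 10 of them were called. All probe sets passed for Gria1, Chrna5 and Chrnb4, and Grm3, Grm4 and Glra2 had 1 probe set each. When the probe sets of a gene were averaged, 9 genes were lower and 3 higher of 60, which is 15.0% and 5.00% against 3.58% and 4.55% of all 18193 genes.

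**Figure D2:**
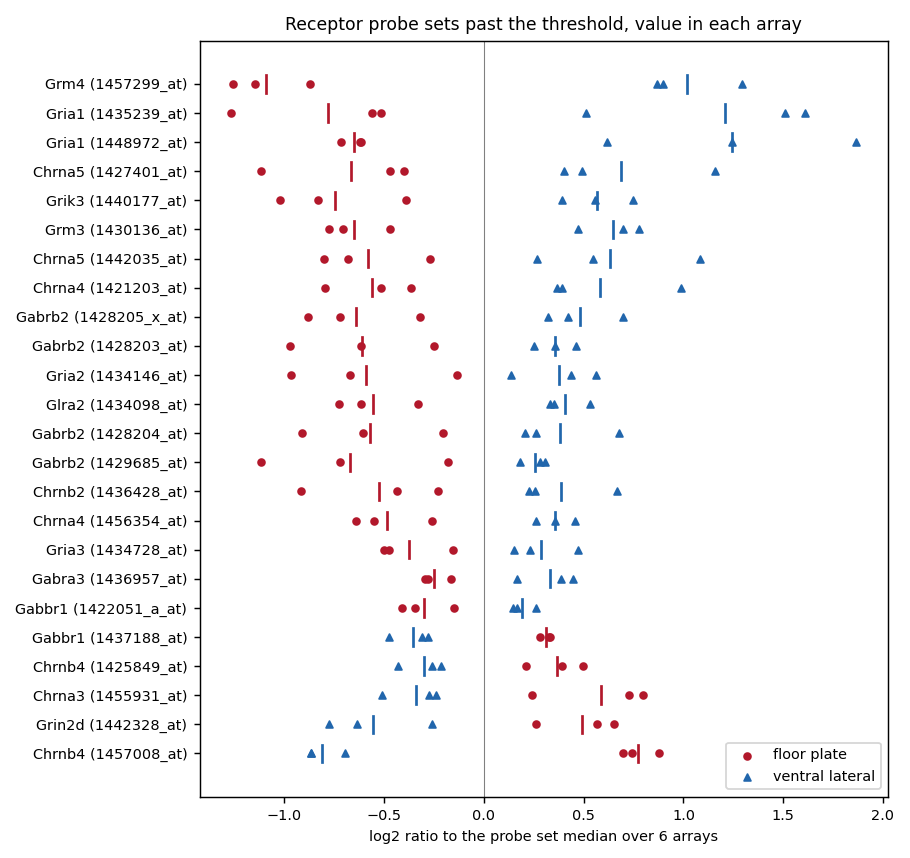
Log2 ratio to the probe set median (horizontal axis) in each of the 6 arrays for the 24 receptor probe sets with adjusted p under 0.05, sorted by their difference. Circles are floor plate arrays, triangles ventral lateral arrays and vertical ticks group means. The regions do not overlap for any probe set, and the 5 at the bottom are those that were higher in floor plate.

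Gria1 had the largest difference of the AMPA receptors, the channels that carry most fast excitation in the mature brain. On probe set 1448972_at its log2 ratio was -0.62, -0.62 and -0.71 in floor plate replicates 1 to 3 and 1.87, 0.62 and 1.25 in ventral lateral replicates 1 to 3. The floor plate arrays were tightly grouped and the ventral lateral arrays were spread widely above them, with replicate 2 the lowest. The difference was -1.89 (SE 0.28, limma adjusted p = 0.00737), or 3.72-fold lower. The other Gria1 probe set, 1435239_at, gave -1.27, -0.51 and -0.56 against 1.61, 0.51 and 1.51, a difference of -1.99 (SE 0.32, limma adjusted p = 0.0112). Ventral lateral replicate 2 was again the lowest of its group, and both calls held without any 1 array. When ventral lateral replicate 2 was dropped the differences were -2.21 (1448972_at) and -2.34 (1435239_at).

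Gria2, whose edited subunit keeps AMPA receptors from passing calcium, was lower on 1 of 3 probe sets. On 1434146_at it read -0.67, -0.13 and -0.97 in floor plate and 0.44, 0.56 and 0.13 in ventral lateral arrays, so floor plate replicate 2 and ventral lateral replicate 3 came close to each other. The difference was -0.97 (SE 0.22, limma adjusted p = 0.0432), and it stayed under the threshold in 1 of the 6 fits with an array left out, the one without floor plate replicate 2 (adjusted p of 0.0624 to 0.137 in the others). It also missed the threshold with all probe sets tested (0.0502) and with array weights (0.0541). Its other probe sets were at -0.48 and -0.11 and did not pass, nor did the mean of the 3 (-0.52, adjusted p = 0.185, limma). Gria3 was lower on 1 of 2 probe sets, at -0.50, -0.15 and -0.48 against 0.15, 0.47 and 0.23. The difference was -0.66 (SE 0.14, limma adjusted p = 0.0309), and it too passed only without floor plate replicate 2 among those 6 fits (0.0585 to 0.104 in the others). The mean of the Gria3 probe sets did not pass (-0.44, adjusted p = 0.0569, limma). Gria4 did not pass on any of 3 probe sets, which gave -0.29, 0.03 and 0.20. In all, 4 of 10 AMPA probe sets were lower and none higher (40% and 0% against 2.57% and 3.47% of all). The family median was -0.38.

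Of the kainate receptors, which shape transmission and outgrowth of young axons, Grik3 was lower on 1440177_at and not on its other probe set. On 1440177_at the floor plate arrays read -0.39, -1.02 and -0.83 and the ventral lateral arrays 0.39, 0.56 and 0.75. All 3 floor plate arrays were below all 3 ventral lateral arrays, with floor plate replicate 1 the closest. The difference was -1.31 (SE 0.18, limma adjusted p = 0.00527), or 2.48-fold lower. On 1427709_at the difference was 0.34 (adjusted p = 0.165, limma), of opposite sign. Grik2 was at -0.61 and -0.23 and did not pass (adjusted p of 0.0729 and 0.487, limma), but its first probe set, 1425790_a_at, passed without ventral lateral replicate 3 (-0.78, adjusted p = 0.0177). The remaining kainate genes Grik1, Grik4 and Grik5 were between -0.50 and 0.08 without a call.

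NMDA receptors, which open when glutamate meets a depolarised membrane, had 1 higher and no lower probe set of 12. These shares, 8.33% and 0% against 3.47% and 2.57% of all, cannot be set apart with so few probe sets. The call was Grin2d, a subunit known for its expression before birth. On 1442328_at it read 0.57, 0.65 and 0.26 in floor plate and -0.64, -0.26 and -0.78 in ventral lateral arrays. Floor plate replicate 3 and ventral lateral replicate 2 lay closest to each other. The difference was 1.05 (SE 0.16, limma adjusted p = 0.00978), or 2.07-fold higher, and the call held without any 1 array. The other Grin2d probe set was at 0.08 with a 95% interval of -0.41 to 0.58, which does not reach the value of the first. Grin2b, the other subunit typical of young neurons, gave -0.76, -0.34, -0.26 and 0.02 on its 4 probe sets, none of which passed; the first read -0.93, -0.29 and -0.12 against 0.28, 0.54 and 0.12 (adjusted p = 0.0984, limma). Grin2a, Grin2c, Grin3a and Grin3b lay between 0.0049 and 0.51 with no call.

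Grm4, a presynaptic receptor that lowers transmitter release, had the largest difference of all 119 probe sets. It read -0.87, -1.15 and -1.26 in floor plate and 1.29, 0.87 and 0.90 in ventral lateral arrays. The gap between the regions was wider than the spread within either of them. The difference was -2.11 (SE 0.15, limma adjusted p = 0.000365), or 4.32-fold lower. Grm3, a receptor of the same inhibitory coupling, read -0.47, -0.77 and -0.70 against 0.70, 0.47 and 0.78. Its group means were equal in size, at -0.65 ± 0.16 and 0.65 ± 0.16 (SD, n = 3 each), and the difference was -1.30 (SE 0.12, limma adjusted p = 0.00134). Both calls held without any 1 array, but each rests on a single probe set. The metabotropic receptors Grm2, Grm5, Grm7 and Grm8 lay between -0.45 and 0.31 without a call. Of these, Grm8 passed without ventral lateral replicate 2 (-0.64, adjusted p = 0.038, limma).

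**Figure D3:**
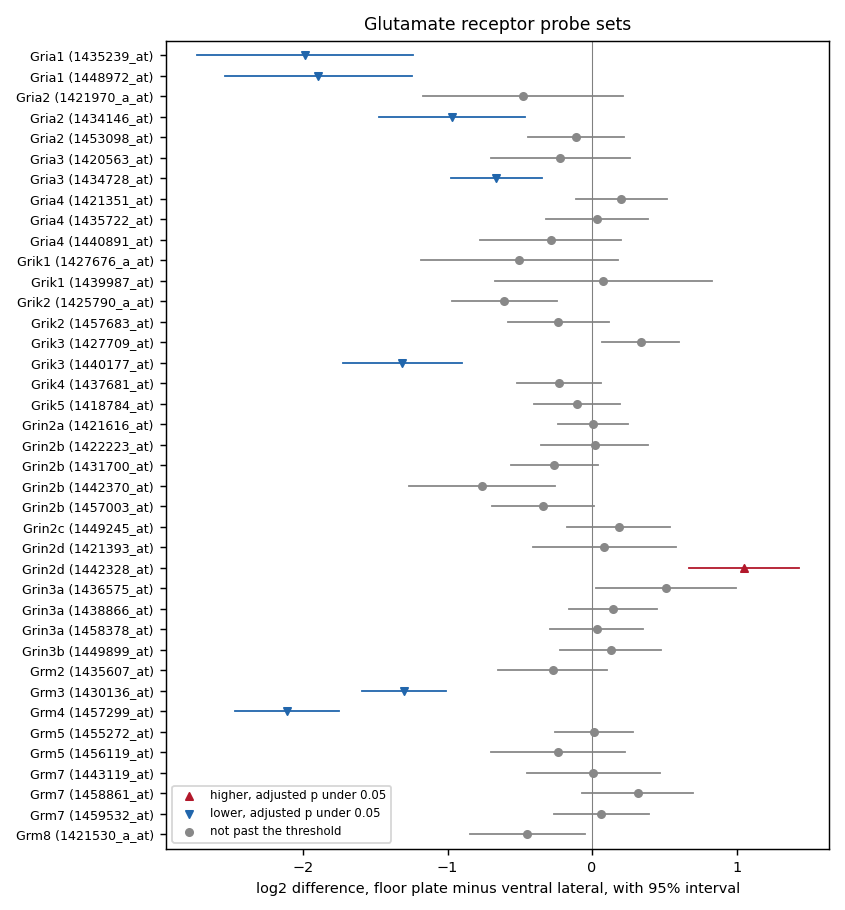
Difference between floor plate and ventral lateral samples (log2, horizontal axis) with its 95% interval for each of the 39 glutamate receptor probe sets, named by gene and probe set. Down triangles mark lower, up triangles higher and grey circles uncalled probe sets. Grm4 and both Gria1 probe sets lie farthest to the left, and Grin2d (1442328_at) is the call on the right.

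Among GABA-A subunits, Gabrb2 stood out, with 4 of 5 probe sets lower in floor plate. A beta subunit lines the GABA binding site of the channel together with an alpha subunit. On 1428205_x_at Gabrb2 read -0.88, -0.32 and -0.72 in floor plate and 0.70, 0.32 and 0.42 in ventral lateral arrays. Replicate 2 was the highest floor plate array and the lowest ventral lateral array. The difference was -1.12 (SE 0.17, limma adjusted p = 0.00826), or 2.18-fold lower, and the call held without any 1 array. This type of probe set can also bind related transcripts. The other called probe sets gave -0.97, -0.95 and -0.93, with adjusted p of 0.0202, 0.0354 and 0.0494 in limma. The last of these, on 1429685_at, missed the threshold under 5 other settings that used all arrays (adjusted p of 0.0506 to 0.0602), namely quantile normalization, array centring, all probe sets, robust eBayes and array weights. All 4 showed the same order among floor plate arrays at the top, with replicate 2 the highest. When floor plate replicate 1, ventral lateral replicate 1 or ventral lateral replicate 3 was dropped, the call of 1428205_x_at was the only one left among GABA-A and GABA-B probe sets on the lower side. The GABA count was 3 lower when ventral lateral replicate 2 was dropped. In the 3 fits named before it was 1 lower, with adjusted p of 0.0655 to 0.146 for the 3 other probe sets called with all arrays. The fifth Gabrb2 probe set was at -0.20 (adjusted p = 0.525, limma).

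Gabra3, an alpha subunit of embryonic GABA-A receptors, was lower on 1 of 2 probe sets. On 1436957_at it read -0.28, -0.30 and -0.17 against 0.38, 0.17 and 0.45, a difference of -0.58 (SE 0.11, limma adjusted p = 0.0202). The adjusted p rose above the threshold when floor plate replicate 1 or 2 or ventral lateral replicate 1 or 3 was dropped (0.0681 to 0.0755), and its other probe set was at -0.06 with an interval of -0.26 to 0.14. Gabra2, Gabra4 and Gabra5 did not pass. The 5 Gabra2 probe sets ran from -0.12 to 0.42, Gabra4 was at -0.14 and -0.03, and Gabra5 was at 0.28 with an interval of -0.10 to 0.66. Gabrg1 had the highest GABA-A difference, 0.97 on 1460408_at, and did not pass (SE 0.30, limma adjusted p = 0.127). Its arrays read 0.70, 0.02 and 0.85 in floor plate and -1.04, -0.02 and -0.29 in ventral lateral samples, so that replicate 2 of both regions was near 0. Of 35 GABA-A probe sets 5 were lower and none higher (14.3% and 0% against 2.57% and 3.47% of all). Of the 15 genes of this family 13 had no call. Gabra6, Gabrb1, Gabrd, Gabre, Gabrg3, Gabrp, Gabrq and Gabrr1 lay between -0.32 and 0.26. Gabrr2, at -0.38, passed without floor plate replicate 2 (-0.66, adjusted p = 0.0474, limma).

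The GABA-B receptor gene Gabbr1, which encodes the subunit that binds GABA, gave calls in both directions. On 1437188_at the floor plate arrays read 0.33, 0.28 and 0.33 and the ventral lateral arrays -0.31, -0.28 and -0.47. The difference was 0.67 (SE 0.09, limma adjusted p = 0.00631), and it held without any 1 array. On 1422051_a_at the same arrays read -0.41, -0.35 and -0.15 against 0.26, 0.17 and 0.15. That difference was -0.50 (SE 0.10, limma adjusted p = 0.0339), and it passed only without floor plate replicate 3 among the fits with an array left out (0.0833 to 0.114 in the others). The remaining probe sets were at -0.25 and -0.11 without a call, and the mean of all 4 was -0.05 (adjusted p = 0.82, limma). No direction can therefore be given for the gene as a whole. The part of the transcript that each probe set reads was not examined.

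Glycine receptors had their only call in Glra2, the alpha subunit that predominates in the embryo. It read -0.62, -0.33 and -0.73 in floor plate and 0.35, 0.33 and 0.53 in ventral lateral arrays. The difference was -0.96 (SE 0.13, limma adjusted p = 0.00506), or 1.95-fold lower, and it held without any 1 array. Glrb, the beta subunit that anchors the receptor at synapses, was at 0.22 and 0.13 on its probe sets, with intervals of -0.38 to 0.82 and -0.15 to 0.41 that leave out the value of Glra2. The adult alpha subunit gene Glra1 was at 0.03 and -0.25 without a call, and Glra3 and Glra4 lay between -0.03 and 0.14.

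**Figure D4:**
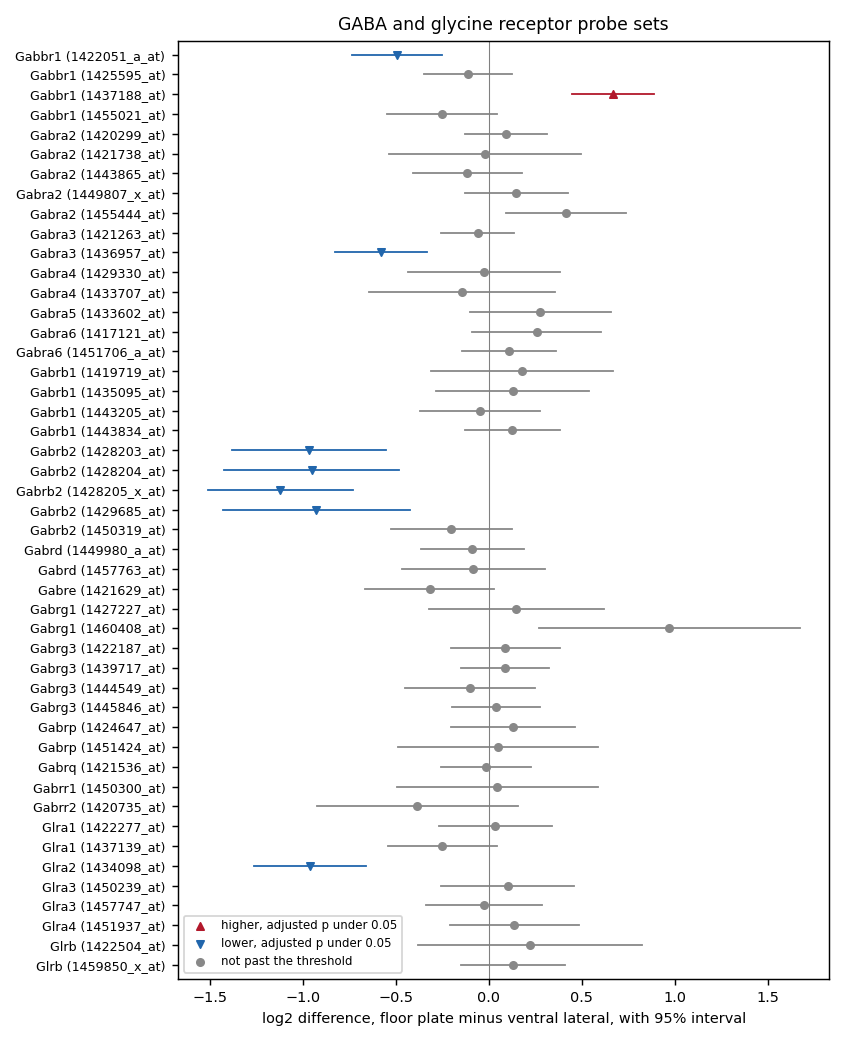
Difference between floor plate and ventral lateral samples (log2, horizontal axis) with its 95% interval for the 39 GABA and 8 glycine receptor probe sets, named by gene and probe set. Down triangles mark lower, up triangles higher and grey circles uncalled probe sets. The 4 called Gabrb2 probe sets lie between -1.12 and -0.93, and Gabbr1 has a call on either side of 0.

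Nicotinic receptors had calls on both sides, 5 lower and 3 higher of 29 probe sets (17.2% and 10.3% against 2.57% and 3.47% of all). With floor plate replicate 3 dropped these became 2 lower and 1 higher, and with floor plate replicate 2, ventral lateral replicate 1 or ventral lateral replicate 3 dropped, 3 lower and 2 higher. Chrnb4, a beta subunit that in the adult pairs with Chrna3 in autonomic ganglia and the habenula, was higher on both of its probe sets. On 1457008_at it read 0.70, 0.88 and 0.74 in floor plate and -0.87, -0.87 and -0.70 in ventral lateral arrays. The arrays of each region lay close together, with an SD of 0.09 and 0.10, and the difference was 1.58 (SE 0.10, limma adjusted p = 0.000264), or 3.0-fold higher. On 1425849_at it read 0.49, 0.21 and 0.39 against -0.21, -0.43 and -0.26, with a difference of 0.67 (SE 0.11, limma adjusted p = 0.0135). The second call was lost without floor plate replicate 3 (0.66, adjusted p = 0.052), and the first held without any 1 array.

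Chrna3 was higher on 1 of 3 probe sets. On 1455931_at it read 0.24, 0.79 and 0.73 in floor plate and -0.27, -0.24 and -0.51 in ventral lateral arrays, with floor plate replicate 1 closest to the other region. The difference was 0.93 (SE 0.16, limma adjusted p = 0.0168). The call was lost when floor plate replicate 2 or 3 or ventral lateral replicate 1 or 3 was dropped (0.0527 to 0.0651). The other probe sets were at 0.43 and 0.08, of the same sign, and the mean of all 3 passed (0.48, adjusted p = 0.0188, limma).

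Chrna5, an accessory alpha subunit that joins receptors built from other alpha and beta subunits, was lower on both probe sets. On 1427401_at it read -1.12, -0.47 and -0.40 against 1.16, 0.40 and 0.49. Replicate 1 was the lowest floor plate array and the highest ventral lateral array. The difference was -1.35 (SE 0.25, limma adjusted p = 0.0221), or 2.55-fold lower. On 1442035_at it read -0.27, -0.80 and -0.68 against 1.08, 0.27 and 0.55, with a difference of -1.22 (SE 0.23, limma adjusted p = 0.0209). The first probe set missed the threshold without replicate 1 of either region (adjusted p of 0.0625 and 0.0526), and the second without floor plate replicate 2 or 3 or ventral lateral replicate 3 (0.0587 to 0.077). Their mean passed (-1.28, adjusted p = 0.00556, limma).

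Chrna5, Chrna3 and Chrnb4 are neighbours on mouse chromosome 9 in RefSeq (GRCm38.p6), so that calls in opposite directions came from adjoining genes. Chrna5 lies on one strand and Chrna3 and Chrnb4 on the other, and the Chrna5 and Chrna3 gene models overlap. Strand and position of the probe sets were not examined either. Among the receptor genes there were 11 pairs of direct neighbours among protein-coding genes, and the 2 pairs within this cluster were the only ones with a call in both genes. The Gabrb2 neighbour Gabra6, the Gria2 neighbour Glrb and the Gabra3 neighbour Gabrq had none. The sequences before the transcript starts of the 3 cluster genes are shown because the genes adjoin and were called in opposite directions. Each line gives the 250 bases before a start in RefSeq (GRCm38.p6), 5′ to 3′ on the gene's strand, at chr9:54980630-54980879 and chr9:54981238-54981487 (plus strand) for Chrna5, chr9:55026563-55026812 (minus strand) for Chrna3 and chr9:55048545-55048794 (minus strand) for Chrnb4. Capitals mark the GC box GGGCGG, which Sp factors bind, and the E-box CAGCTG, which basic helix-loop-helix factors bind, each on either strand.
Chrna5, first start: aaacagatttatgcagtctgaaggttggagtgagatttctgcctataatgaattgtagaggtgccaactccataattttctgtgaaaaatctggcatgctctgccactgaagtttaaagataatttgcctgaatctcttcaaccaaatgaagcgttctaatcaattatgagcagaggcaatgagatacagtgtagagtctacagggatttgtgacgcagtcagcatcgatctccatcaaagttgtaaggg
Chrna5, second start: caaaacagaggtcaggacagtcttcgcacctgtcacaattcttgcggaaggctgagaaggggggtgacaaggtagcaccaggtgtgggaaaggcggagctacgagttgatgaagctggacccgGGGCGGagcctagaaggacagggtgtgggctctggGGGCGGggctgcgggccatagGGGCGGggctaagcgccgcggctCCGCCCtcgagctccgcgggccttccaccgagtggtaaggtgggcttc
Chrna3: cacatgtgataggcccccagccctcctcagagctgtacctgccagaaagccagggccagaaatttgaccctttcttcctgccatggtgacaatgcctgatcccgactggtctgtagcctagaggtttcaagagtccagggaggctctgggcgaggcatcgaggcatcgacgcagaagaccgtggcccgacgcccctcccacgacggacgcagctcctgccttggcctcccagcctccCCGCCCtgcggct
Chrnb4: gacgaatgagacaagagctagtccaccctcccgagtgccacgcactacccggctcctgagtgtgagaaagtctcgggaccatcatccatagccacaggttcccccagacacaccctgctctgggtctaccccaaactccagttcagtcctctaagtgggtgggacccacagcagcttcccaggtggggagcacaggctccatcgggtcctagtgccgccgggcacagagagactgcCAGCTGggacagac
The second Chrna5 window held 4 GC boxes and the Chrna3 window 1, while the Chrnb4 window held 1 E-box and no GC box and the first Chrna5 window neither. No match overlapped another motif. Over all 32851 promoters of the table, 32.7% held a GC box and 13.0% this E-box in the same 250 bases. For the 53 promoters of 45 receptor genes the shares were 49.1% and 13.2%. These matches describe letters only.

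Chrna4 and Chrnb2, the subunits of the most common nicotinic receptor of the adult brain, were both lower on some probe sets. Chrna4 read -0.26, -0.64 and -0.55 against 0.45, 0.26 and 0.36 on 1456354_at, a difference of -0.84 (SE 0.12, limma adjusted p = 0.00777) that held without any 1 array. On 1421203_at the difference was -1.14 (SE 0.19, limma adjusted p = 0.0139), lost without floor plate replicate 3 (-1.02, adjusted p = 0.0511). The third was at -0.65 and did not pass (adjusted p = 0.129), and the mean of the 3 was -0.88 (adjusted p = 0.000887, limma). Chrnb2 was lower on 1436428_at, at -0.23, -0.44 and -0.92 against 0.67, 0.26 and 0.23. That difference was -0.91 (SE 0.20, limma adjusted p = 0.0393), and it passed only without floor plate replicate 1 among the fits with an array left out (0.0728 to 0.121 in the others). The other Chrnb2 probe sets were at -0.58 and -0.12, and the mean did not pass (-0.54, adjusted p = 0.06, limma). The homomeric receptor gene Chrna7 was at -0.64 and -0.20 without a call.

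The subunits of the muscle receptor, Chrna1, Chrnb1, Chrnd, Chrne and Chrng, had no call on 7 probe sets and lay between -0.04 and 0.32. At an unadjusted p under 0.05 there were 0 of 7, and so few probe sets cannot be set apart from the 18.3% of all. Markers of skeletal muscle had no call on 12 probe sets either (1 at an unadjusted p under 0.05). Their list means were -0.08 to 0.17 in floor plate arrays and -0.06 to 0.04 in the ventral lateral ones. The brain and sensory subunit genes Chrna2, Chrna6, Chrna9 and Chrnb3 lay between -0.15 and 0.14 without a call. The muscarinic receptor genes Chrm1, Chrm3 and Chrm4 had no call on 4 probe sets, between -0.01 and 0.26. At an unadjusted p under 0.05 there were 0 of 4, too few to set apart from the 18.3% of all.

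**Figure D5:**
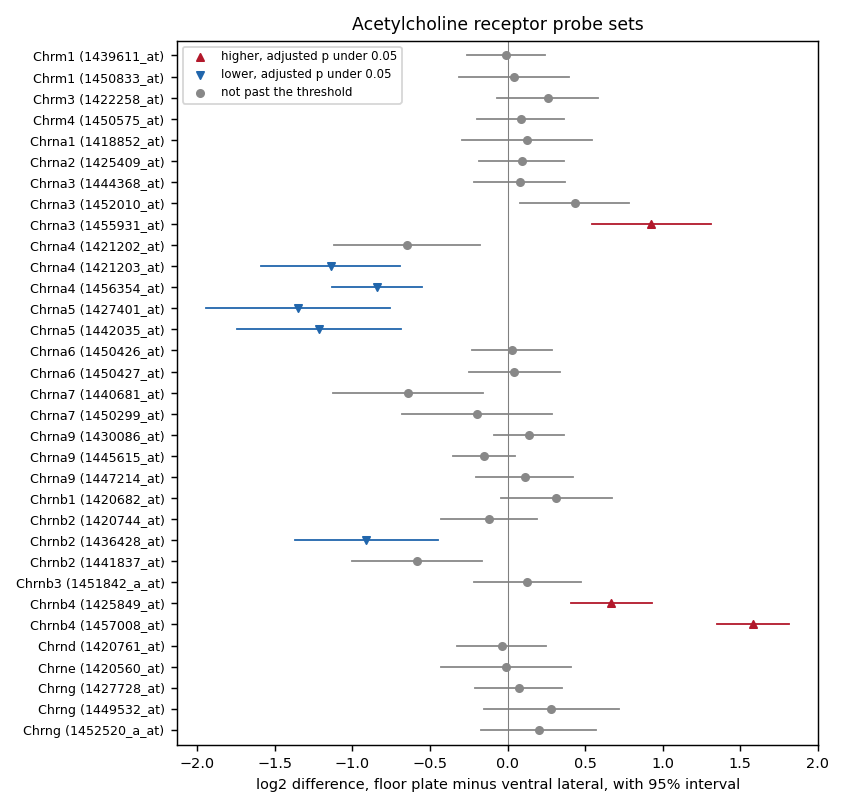
Difference between floor plate and ventral lateral samples (log2, horizontal axis) with its 95% interval for the 33 acetylcholine receptor probe sets, named by gene and probe set. Down triangles mark lower, up triangles higher and grey circles uncalled probe sets. Both Chrnb4 probe sets and 1 of Chrna3 lie on the right, and Chrna4, Chrna5 and Chrnb2 on the left.

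Genes for receptor accessory and scaffold proteins were lower more often than higher, 9 and 1 of 95 probe sets of 44 genes (9.47% and 1.05% against 2.57% and 3.47% of all). The presynaptic adhesion gene Nrxn3 was at -1.10 and -0.89 on its called probe sets and Nrxn2 at -0.83. Uncalled probe sets were at -1.02, -0.38 and -0.25 for Nrxn3 and at -0.06 for Nrxn2. Cacng5 was at -1.04 and Cacng2 at -1.02 and -0.62 on their called probe sets. Each had another probe set without a call, at 0.12 (Cacng5) and 0.07 (Cacng2). Cacng5 and Cacng2 belong to the gamma subunits that escort AMPA receptors to the membrane. Cacng4 was at -0.70 and -0.47 on called probe sets and was picked after its values were seen. Cacng3, Cacng7 and Cacng8 lay between -0.66 and -0.06 without a call. Of the 12 Cacng probe sets 5 were lower and none higher, beside 2.57% and 3.47% of all. That count was made after these calls were seen. The pentraxin gene Nptx1, which clusters AMPA receptors and was also picked after its value was seen, was at -0.58. Its other probe set was at -0.06 without a call. The higher gene was Shisa9, which encodes another AMPA receptor partner. It was at 4.08 on 1435424_x_at (SE 0.17), with arrays at 1.85, 1.97 and 2.47 against -2.10, -1.98 and -1.85. Its other probe sets were at 0.49 and 0.22 and did not pass. The lower count of this list was 5 when floor plate replicate 1 or 3 or ventral lateral replicate 1 was dropped, and the higher count was 2 when replicate 2 of either region was. The gephyrin gene Gphn, which anchors glycine and GABA-A receptors, was between -0.11 and 0.26 without a call.

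The lists of neuronal markers differed in direction. Of 36 pan-neuronal probe sets 10 were lower (27.8% against 2.57% of all) and none higher, with a median difference of -0.43. Differences in this list ranged from -1.10 to 0.19. The 10 calls came from 5 of the 14 genes (Ina, Mapt, Nefl, Stmn2 and Syt1), and the other 9 had none. The mean of this list was -0.26, -0.09 and -0.28 in floor plate and 0.41, 0.25 and -0.01 in ventral lateral replicates 1 to 3. GABAergic neuron markers were lower on 11 of 14 probe sets (78.6% against 2.57% of all, median -3.41). Their list means were -1.63 to -1.33 and 1.10 to 1.77 in the respective arrays. Glutamatergic neuron markers were lower on 6 of 10 (60% against 2.57% of all, median -1.80), with list means of -0.94 to -0.89 and 0.72 to 0.96. All 6 calls came from the transcription factor genes Lhx9 (4 probe sets) and Pou4f1 (2). The other 3 genes of this list, Slc17a6, Slc17a7 and Neurod6, had none, and the vesicular glutamate transporter gene Slc17a6 was at -0.32 and -0.23. Markers of cholinergic and motor neurons had no call on 6 probe sets (median 0.76), with list means of 0.10 to 0.32 and -1.23 to -0.09. Of these, 3 of the 6 had an unadjusted p under 0.05, against 18.3% of all. Dopaminergic neuron markers were higher on 5 and lower on 1 of 13 probe sets (38.5% and 7.69% against 3.47% and 2.57% of all). Their median was 0.42, with list means of 0.27 to 0.49 and -0.54 to -0.25. The 5 higher calls came from 2 of the 7 genes, with Th on 1 probe set and Nr4a2 on the others. The lower call came from Ddc, and the other 4 genes had none. The part of the neurons marked by these lists in the receptor differences was not tested. Across the 19 lower receptor probe sets, ventral lateral replicate 1 was the highest ventral lateral array for 12, and replicate 2 the lowest for 13.

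Lists of cells outside the neural tube held too few probe sets to set their calls apart from the shares of all. Of 20 mesenchyme probe sets 1 was higher, Twist1 (2.11), which is 5% against 3.47% of all. Of 7 endothelium probe sets 1 was lower, Cldn5 (-0.68), which is 14.3% against 2.57% of all. Both genes were named after their values were seen. Blood markers had no call on 11 probe sets, with 1 at an unadjusted p under 0.05 (9.09% against 18.3% of all). Progenitor markers, a list of cells within the neural tube, had 2 higher and 2 lower of 20 (10% each against 3.47% and 2.57% of all, median 0.09). Calls in either direction came to 20% against 6.04% of all. The higher ones were Hes1 (1.10) and Prom1 (0.62), the lower ones Sox1 (-2.83) and Sox3 (-0.98), named after their values were seen. The other Sox1 and Sox3 probe sets were at -0.29 and -0.34 without a call.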

How the data were processed

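Total RNA (5 ng per sample) was amplified (NuGEN Ovation), labelled with biotin and hybridised to Affymetrix mouse arrays, per the labels' protocols. The submitters' processing notes name RMA without a version. The deposited log2 ratios are centred, with a median over the 6 arrays within 1e-05 of 0 for 100% of 45101 probe sets. The authors' labels state neither the base of the logarithm nor the centring or its direction. Array medians ran from -0.0031 to 0.0045. Precision is limited by having 3 arrays a region (median SE of a receptor difference 0.15). Scan date, slide and signal level were not used here.

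Probe sets were named with GEO's platform annotation: 34945 had 1 symbol, 932 several and 9160 none, beside 64 controls. A further 2 probe sets pair a receptor symbol with another and were left out. Each probe set with 1 symbol was fitted on its own with lmFit and eBayes of limma 3.58.1 (R 4.3.3), without a filter, since the receptors were defined by probe set and picking the most variable probe set of a gene favours differences. The script was tested on simulated data. Genes were named by rule: in each class the probe sets past the threshold with the largest differences and separated groups (up to 5 each way), any past an absolute log2 difference of 1 that missed it (0 here), a fixed set of subunits and up to 4 accessory genes each way. Other genes are named by range or as picked. Members and lists were chosen with earlier results of these data known. Tables and plots used Python 3.11.15, pandas 2.3.3 and matplotlib 3.10.9. RefSeq (GRCm38.p6) gave names for all 60 genes, their neighbours and promoters for 45, with the promoter coordinates of that build.

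Alternatives were quantile normalization, arrays centred on their median, the mean and the most variable probe set of a gene, leaving out _x_at and _s_at probe sets, all probe sets, array weights, robust eBayes, a block for the replicate number and leaving out each array.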

Additional observations from a re-analysis of the deposited data

How the results depend on the processing

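Of the 19 lower and 5 higher receptor probe sets, 16 to 18 and 5 were called after quantile normalization, array centring, robust eBayes, array weights, testing all probe sets, leaving out _x_at and _s_at probe sets and with the replicate block. With 1 array left out, 10 to 16 were lower and 3 to 5 higher. The range was 1 to 5 lower GABA, 5 to 7 lower glutamate, 2 to 4 lower acetylcholine and 1 to 3 higher acetylcholine probe sets, and 5 to 7 lower and 1 to 2 higher accessory probe sets. Over all probe sets it was 802 to 986 higher and 535 to 705 lower. Class medians ranged from -0.057 to 0.025 (GABA), -0.22 to -0.12 (glutamate), -0.015 to 0.10 (glycine) and -0.011 to 0.053 (acetylcholine), so the signs of the GABA, glycine and acetylcholine medians were not stable. With probe sets averaged per gene, which leaves fewer features, there were 9 lower and 3 higher, with 2 lower and 0 higher GABA genes, 4 lower glutamate genes, 2 lower acetylcholine genes, 2 higher accessory genes and a GABA median of 0.0061. Gabbr1 1437188_at (higher) stood against a gene mean of -0.048, and Grik3 1427709_at (0.34, not called) against a called gene mean of -0.49. On the most variable probe set there were 12 lower genes, 2 of them GABA and 3 acetylcholine, with 2 higher accessory genes and medians of 0.088 (acetylcholine) and -0.29 (glutamate). Array weights gave a glutamate median of -0.17. The higher accessory count was 2 after quantile normalization and 0 without _x_at and _s_at probe sets, which drops Shisa9 1435424_x_at. The cause of the other shifts was not tested.

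Whether replicate numbers pair the samples is not stated in the labels, and the main fit used no pairing. Deviations of same-numbered arrays from their region means correlated at 0.01, 0.11 and 0.10 for replicates 1 to 3. Arrays of different numbers correlated at -0.15 to 0.04, with floor plate replicate 1 and ventral lateral replicate 3 the highest of these. The values for replicates 2 and 3 lay above all of these. With 3 arrays a region, such correlations cannot decide whether pools shared embryos. The replicate block gave 16 lower and 5 higher receptor probe sets, with adjusted p of 0.0626 for Chrna5 1427401_at, 0.0806 for Gabrb2 1428204_at and 0.0814 for Gabbr1 1422051_a_at. Normexp from scanner values, a filter on dim probe sets and a slide or date block were not run, since centred values hold no signal level and no such files or labels were used here.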
